A study of Arabidopsis thaliana with 12 samples.

Results

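NRT2.5 (AT1G12940) and ASPGB1 (AT3G16150) are a pair of Arabidopsis thaliana nitrogen genes, one for nitrate uptake and one for asparagine breakdown. They were taken by name, through the single probe set that the array annotation pairs with each of them alone (261198_at for NRT2.5 and 258338_at for ASPGB1), and are 2 of 13356 genes with such a probe set. Both were selected on measured values, since they stood among the larger falls in germinants on titania in an earlier pass over these data. Their titania contrast is therefore given as a description with no test, and only the ceria contrast, which shares no array with it, was tested.

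Whole germinants of the Columbia (Col-0) ecotype, labelled 12 days old, were grown from sterilised seed on filter discs wetted with 2 mL of liquid, with 50 seeds per disc, and profiled on Affymetrix arrays. The groups were TiO2 (titania particles, 500 mg per L), its control KCl (0.1 mM KCl), CeO2 (ceria particles, 500 mg per L) and its control water (sterile purified water). Each group had 3 arrays, called biological replicates in the labels of TiO2 and KCl and only replicates in those of CeO2 and water. For the second kind a p-value may measure technical spread only. The labels name no nutrient in the liquid, and they do not state in which liquid the particles were suspended. Shoots, roots and any remaining seed tissue went into 1 extract, so that a lower level per cell and fewer cells of a type cannot be told apart.

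Plants take up nitrate through low-affinity carriers when it is plentiful and through high-affinity carriers of the NRT2 family when it is scarce. NRT2.5 is the NRT2 member known for plants starved of nitrogen for a long time, in the outer root cells and in the veins of the shoot, and it works with the partner protein NAR2.1. Asparagine is a main form in which nitrogen is stored and carried between organs, also out of germinating seeds, and asparaginases split it into aspartate and ammonium. ASPGB1 is the asparaginase of Arabidopsis that is activated by potassium, while the activity of its relative ASPGA1 does not depend on potassium.

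The values are log2 expression values from robust multi-array average (RMA), 22746 probe sets on each of 12 arrays. Array minima ran from 2.3 to 2.5 log2, and arrays of a group correlated at 0.993 to 0.997 across probe sets. The 6 TiO2 and KCl arrays had medians of 5.69 to 5.74 log2 and the 6 CeO2 and water arrays medians of 5.88 to 5.92 log2. Whether these sets were normalized together is not stated in the labels. Over all probe sets the median change was 0.02 log2 for TiO2 minus KCl and −0.01 log2 for CeO2 minus water. Among tissue markers, the rubisco activase gene RCA of green tissue averaged 13.53 to 13.72 log2 and the root hair expansin EXPA7 7.64 to 8.60 log2 in the 4 groups. They were the 1 measured marker of 11 for green shoots and the 1 of 15 for roots.

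The comparison of TiO2 with KCl asks how germinants on titania differed from those on its control salt. In it both genes were lower in TiO2, NRT2.5 by 2.41-fold and ASPGB1 by 3.34-fold. The 3 TiO2 arrays lay below the 3 KCl arrays for both.

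NRT2.5 read 4.74, 4.44 and 4.03 log2 on the TiO2 arrays, replicates 1 to 3, against 5.56, 5.87 and 5.59 log2 on the KCl arrays. The groups did not overlap, and the spread was wider in TiO2, with a mean of 4.404 ± 0.35 log2 against 5.68 ± 0.17 log2 in KCl (SD, n = 3 each). The change was −1.27 ± 0.16 log2 (limma estimate and its standard error, SE). The lowest value, on TiO2 replicate 3, was 1.52 log2 above the highest of the 12 array minima. It was also below the 30th percentile of that array, 4.23 log2. Whether it was above background was not tested, so the size of the fall is uncertain.

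ASPGB1 read 6.73, 6.29 and 6.22 log2 on the TiO2 arrays, against 8.19, 8.20 and 8.07 log2 on the KCl arrays. Every TiO2 array was more than 1 log2 below every KCl array, with means of 6.42 ± 0.28 log2 in TiO2 and 8.16 ± 0.07 log2 in KCl (SD, n = 3 each). The change was −1.74 ± 0.13 log2 (SE). Of all 22746 probe sets, 25 had a more negative change than ASPGB1 and 82 a more negative one than NRT2.5. TiO2 arrays lay wholly below KCl arrays in 11.3% of all probe sets, and 5.86% were lower past the threshold of the fit, an adjusted p of 0.05. Since this contrast picked both genes, nothing is read from those shares.

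The comparison of CeO2 with water asks the same of ceria, and it is the one in which both genes could be tested. Neither passed the threshold, which 2.42% of all probe sets did in this comparison (1.26% as higher in CeO2 and 1.16% as lower). Both were slightly higher in CeO2, and the arrays of the groups overlapped.

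NRT2.5 read 5.79, 5.26 and 5.40 log2 on the CeO2 arrays, replicates 1 to 3, against 5.21, 5.49 and 5.28 log2 on the water arrays. CeO2 replicate 1 was above all 3 water arrays and the other 2 CeO2 arrays lay within their range. The means were 5.48 ± 0.27 log2 in CeO2 and 5.33 ± 0.15 log2 in water (SD, n = 3 each). The change was 0.16 ± 0.16 log2 (SE), with a 95% interval of −0.19 to 0.51 and a limma adjusted p of 0.895. Without CeO2 replicate 1 it was 0.0034 log2, so the small excess in CeO2 lay in that array.

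ASPGB1 read 7.62, 7.50 and 7.32 log2 on the CeO2 arrays, against 7.40, 6.98 and 7.29 log2 on the water arrays. CeO2 replicates 1 and 2 were above every water array, and CeO2 replicate 3 was below water replicate 1. The means were 7.48 ± 0.15 log2 in CeO2 and 7.22 ± 0.22 log2 in water (SD, n = 3 each). The change was 0.26 ± 0.13 log2 (SE), with a 95% interval of −0.03 to 0.54 and a limma adjusted p of 0.591. Without water replicate 2 it was 0.14 log2. 

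Both intervals lie above the changes in TiO2, but the pair was picked for those falls, so nothing is read from that. The CeO2 effect minus the TiO2 effect came to 1.43 ± 0.23 log2 for NRT2.5 and 2.00 ± 0.19 log2 for ASPGB1 (SE), given without a test because they contain the contrast that picked the genes. Particle, control liquid and set of arrays also go together here and cannot be told apart.

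**Figure D1:**
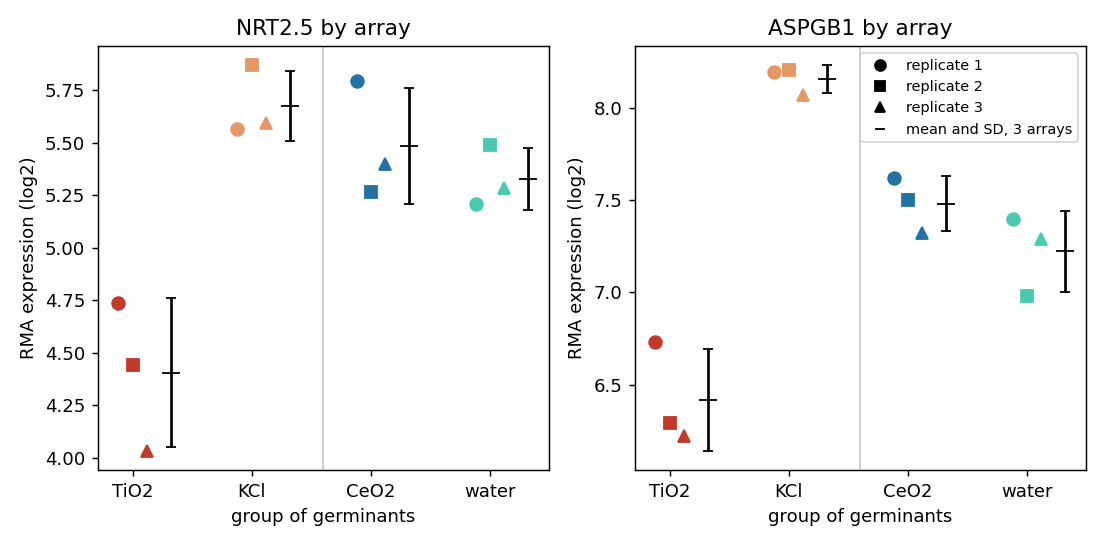
RMA expression (log2) of NRT2.5 and ASPGB1 on each of the 12 arrays, by group, with symbols for the replicate number and bars for the mean and SD of 3 arrays. The TiO2 arrays sit lowest in both panels, at 4.03 to 4.74 log2 for NRT2.5 and 6.22 to 6.73 log2 for ASPGB1, and the CeO2 and water arrays overlap.

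Set in order, the groups ran the same way for both genes, TiO2 lowest, then water, then CeO2, and KCl highest. Because the pair was picked for falls in TiO2 against KCl, the place of TiO2 below KCl was fixed in advance. For NRT2.5 the step between TiO2 and water was 0.92 log2 and clear of the arrays' spread. Its next steps, 0.16 log2 up to CeO2 and 0.19 log2 up to KCl, were each smaller than the larger SD of the groups they join, and the arrays overlapped, so that CeO2 did not differ from water or from KCl beyond the spread. Water and KCl, which are not neighbours in this order, did not overlap. For ASPGB1 the steps were 0.81, 0.26 and 0.68 log2. Only that between water and CeO2 had overlapping arrays.

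Between the 2 controls, the ASPGB1 mean of KCl was 0.93 log2 above that of water, with no overlap of the arrays. For NRT2.5 KCl was 0.35 log2 above water, also with no overlap, though its lowest KCl array (5.56 log2) was close to the highest water array (5.49 log2). How often arrays of different sets fail to overlap over all probe sets was not counted. Nothing is therefore read from the lack of overlap. Steps between the sets carry any difference in their normalization. After a second quantile normalization of all 12 arrays together the order was the same, with ASPGB1 means of 6.50 log2 in TiO2, 8.16 in KCl, 7.43 in CeO2 and 7.16 in water. NRT2.5 then had means of 4.42 log2 in TiO2, 5.76 in KCl, 5.40 in CeO2 and 5.24 in water.

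With the mean of each set of 6 arrays taken off, the values of both genes correlated at r = 0.928 over 12 arrays, a figure that mainly carries the TiO2 and KCl difference for which they were picked. With the mean of each group of 3 taken off, r was only 0.444 over the same 12 arrays, which does not show that the genes went together within groups. Within TiO2, replicate 1 was the highest and replicate 3 the lowest array for both genes, and within CeO2 replicate 1 was the highest for both. In water the order differed, since replicate 2 was the highest array for NRT2.5 and the lowest for ASPGB1.

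**Figure D2:**
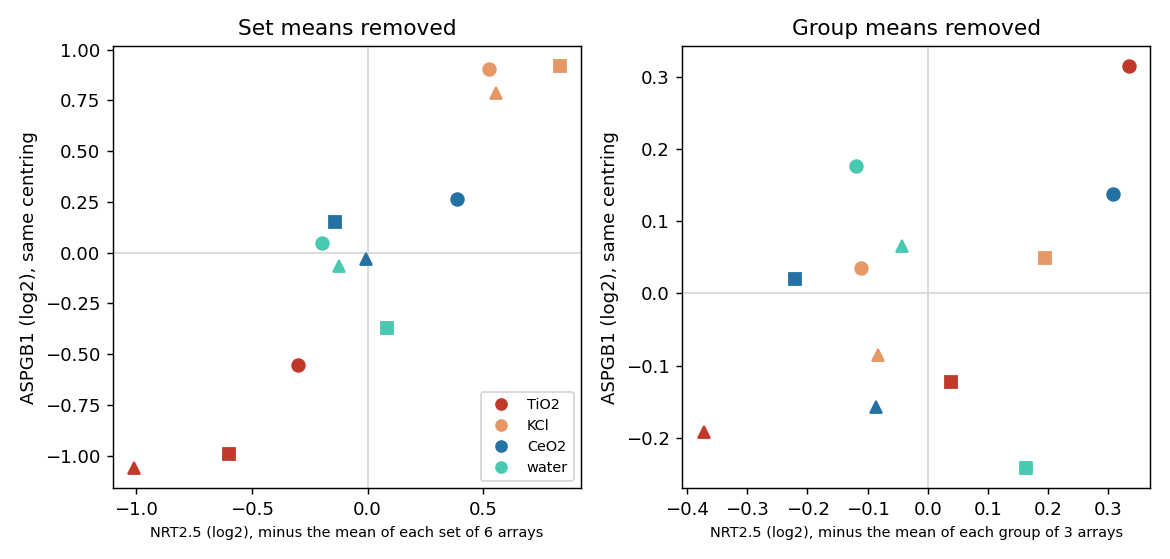
ASPGB1 against NRT2.5 (log2) on the 12 arrays after the mean of each set of 6 arrays (left) or of each group of 3 arrays (right) is removed, with colours for groups and circles, squares and triangles for replicates 1, 2 and 3. On the left the TiO2 arrays lie at the lower left and the KCl arrays at the upper right (r = 0.928), and on the right the points scatter more widely (r = 0.444).

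The probe sets most like each gene were looked up by Pearson correlation over the 12 arrays with set means removed, among 550 probe sets of 1 gene with an SD of at least 0.3 log2. ASPGB1 itself ranked 10 in likeness to NRT2.5, and NRT2.5 ranked 32 in likeness to ASPGB1. The 5 nearest to NRT2.5 were AT4G16190 (r = 0.969), DFR (0.957), AT2G43620 (0.957), AT4G14090 (0.950) and AT4G04460 (0.944). DFR encodes the dihydroflavonol reductase of anthocyanin synthesis, and its level averaged 9.49 log2 in TiO2 and 10.37 in KCl, 9.90 in CeO2 and 9.92 in water.

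Those nearest to ASPGB1 were AT1G49570 (r = 0.975), AT1G52870 (0.975), AT5G61820 (0.971), UGT84A3 (0.968) and AT2G17280 (0.966). UGT84A3 encodes a glucosyltransferase of hydroxycinnamic acids. Its level averaged 7.70 log2 in TiO2 and 9.10 in KCl, 9.09 in CeO2 and 8.79 in water. AT1G49570 averaged 5.48 log2 in TiO2 and 7.51 in KCl, 7.67 in CeO2 and 7.32 in water. All of these correlations rest largely on the TiO2 and KCl arrays, where the 10 genes also differ.

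No measured gene next to NRT2.5 or ASPGB1 on their chromosomes passed the threshold. Over all probe sets, 10.6% passed in TiO2 and 2.42% in CeO2. Of the 3 protein-coding genes on either side of NRT2.5 in the RefSeq table, AT1G12930 and AT1G12960 had a probe set of their own, with changes in TiO2 of −0.11 ± 0.11 and 0.12 ± 0.10 log2 (SE; limma adjusted p = 0.631 and 0.557). Around ASPGB1, AT3G16120, AT3G16160 and AT3G16175 were measured, with changes of −0.05, 0.12 and −0.04 log2 (limma adjusted p of 0.765 or more). In CeO2 the 5 neighbours lay between −0.24 and 0.04 log2 (limma adjusted p of 0.774 or more).

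Other genes of nitrogen uptake and use were listed to set beside the pair. Of 111 listed genes only 9 have a probe set of their own in the annotation used here, 1 nitrate transporter gene, 1 urea gene, 1 asparaginase gene and 6 loci listed as regulators. The other NRT2 genes, NAR2.1, the asparagine synthetase genes ASN1 to ASN3 and the regulator genes NLP7, HRS1 and LBD37 to LBD39 are not analysed here. None of the 9 passed the threshold in TiO2 or in CeO2, where 10.6% and 2.42% of all probe sets did. At an unadjusted p under 0.05 there were 4 in TiO2 and 2 in CeO2, against 23% and 9.8% of all probe sets. Their median change was 0.16 log2 in TiO2 and 0.03 log2 in CeO2.

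ASPGA1, the other asparaginase gene, did not pass the threshold in either comparison. It read 9.37, 9.11 and 9.47 log2 on the TiO2 arrays, against 9.01, 9.20 and 9.24 log2 on the KCl arrays. Its change was 0.17 ± 0.12 log2 (SE; 95% interval −0.08 to 0.42; limma adjusted p = 0.439) in TiO2 and 0.09 ± 0.12 log2 in CeO2 (adjusted p = 0.922). The arrays of TiO2 and KCl overlapped. The interval in TiO2 lies above the change of ASPGB1, but that gene was picked for its fall, so nothing is read from this.

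NPF6.2, a low-affinity nitrate transporter gene of the leaf stalk, read 9.34, 9.14 and 9.29 log2 in TiO2, against 9.08, 9.28 and 9.10 log2 in KCl. Its change was 0.11 ± 0.12 log2 (SE; 95% interval −0.15 to 0.36; limma adjusted p = 0.684) in TiO2 and 0.19 ± 0.12 log2 in CeO2 (adjusted p = 0.724). URE, the gene of urease, which frees ammonium from urea, was at 0.26 ± 0.11 log2 in TiO2 (limma adjusted p = 0.173) and −0.27 ± 0.11 log2 in CeO2 (adjusted p = 0.390).

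The 6 loci listed as regulators have no symbol in the tables and lay between −0.45 and 0.32 log2 in TiO2 and between −0.30 and 0.20 log2 in CeO2. AT1G06830 had the most negative TiO2 value, −0.45 ± 0.16 log2 (SE; limma adjusted p = 0.0818). Leaving out KCl replicate 3 brought its adjusted p to 0.0146, and leaving out TiO2 replicate 1 brought it to 0.0440. AT2G47880, at −0.29 ± 0.14 log2, came to an adjusted p of 0.0442 when TiO2 replicate 1 was left out.

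Because so few listed genes were measured, 18 more were added from the annotation by name, with earlier results of these data known. They were 10 nitrate and peptide transporter family (NPF) genes, 3 genes of ureide breakdown, 4 autophagy genes and a glutamine amidotransferase gene. Of the 27 genes together, 3 fell in TiO2 and none rose, which is 11.1% of them. Over all probe sets 10.6% were called in either direction and 5.86% as lower. At an unadjusted limma p under 0.05 there were 10 in TiO2, against 23% of all probe sets. In CeO2 none passed, with 5 at an unadjusted p under 0.05, against 9.8% of all probe sets. The share called in TiO2 is close to that of the array for both directions together and above that for falls. This excess was not tested. The median change of the 27 genes was −0.09 log2 in TiO2 and 0.01 log2 in CeO2. The difference between both particle effects passed for 3 of the 27, as for 8.06% of all probe sets.

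Among the 10 added NPF genes, whose family carries nitrate, peptides and plant hormones, 2 fell in TiO2, against 5.86% of all probe sets. NPF4.4 read 5.21, 5.19 and 5.10 log2 in TiO2, against 5.75, 5.78 and 5.88 log2 in KCl, a change of −0.63 ± 0.09 log2 (SE; limma adjusted p = 0.000297). The groups were clear of each other. NPF4.3 read 6.74, 6.66 and 7.03 log2 in TiO2, against 7.08, 7.34 and 7.34 log2 in KCl, a change of −0.45 ± 0.11 log2 (SE; limma adjusted p = 0.0116). The call did not hold when KCl replicate 2 (adjusted p = 0.0515) or TiO2 replicate 2 (0.0615) was left out. Nor did it with only the 6 compared arrays fitted (adjusted p = 0.0654). It held in every other alternative, with an adjusted p of 0.00842 with the replicate number as a block in the fit. The other 8 NPF genes, with the glucosinolate importer genes GTR1 and GTR2 among them, lay between −0.13 and 0.22 log2 in TiO2 and did not pass the threshold.

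ALN, the gene of the allantoinase that opens allantoin in ureide breakdown, fell in TiO2. It read 7.43, 7.26 and 6.80 log2, against 8.08, 7.91 and 7.48 log2 in KCl, a change of −0.65 ± 0.16 log2 (SE; limma adjusted p = 0.0164). TiO2 replicate 1 and KCl replicate 3 nearly touched. ALN no longer passed when KCl replicate 1 (adjusted p = 0.0809), KCl replicate 2 (0.0613) or TiO2 replicate 3 (0.0811) was omitted. Nor did it with only the 6 compared arrays fitted (adjusted p = 0.0775). It passed in every other alternative, with an adjusted p of 0.00230 without KCl replicate 3. With the replicate number as a block in the fit the adjusted p was 0.000276. The later ureide genes AAH and UGLYAH were at −0.15 and −0.14 log2 and did not pass.

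The 4 measured ATG8 genes, whose small proteins coat the vesicles of autophagy, all had negative values in TiO2 and none passed. The share of negative values over all probe sets was not counted, and 10.6% of all probe sets passed the threshold. ATG8C was at −0.48 ± 0.16 log2 (SE; limma adjusted p = 0.0737), ATG8B at −0.40 ± 0.14 log2 (adjusted p = 0.0820), ATG8H at −0.31 and ATG8F at −0.21 log2. Leaving out KCl replicate 3 brought ATG8C past it (adjusted p = 0.0100). In CeO2 the same genes lay between −0.01 and 0.07 log2. The brighter probe set of the glutamine amidotransferase gene GAT1_2.1 was at 0.29 log2 in TiO2 and its other probe set at −0.03 log2, so that its direction is uncertain.

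**Figure D3:**
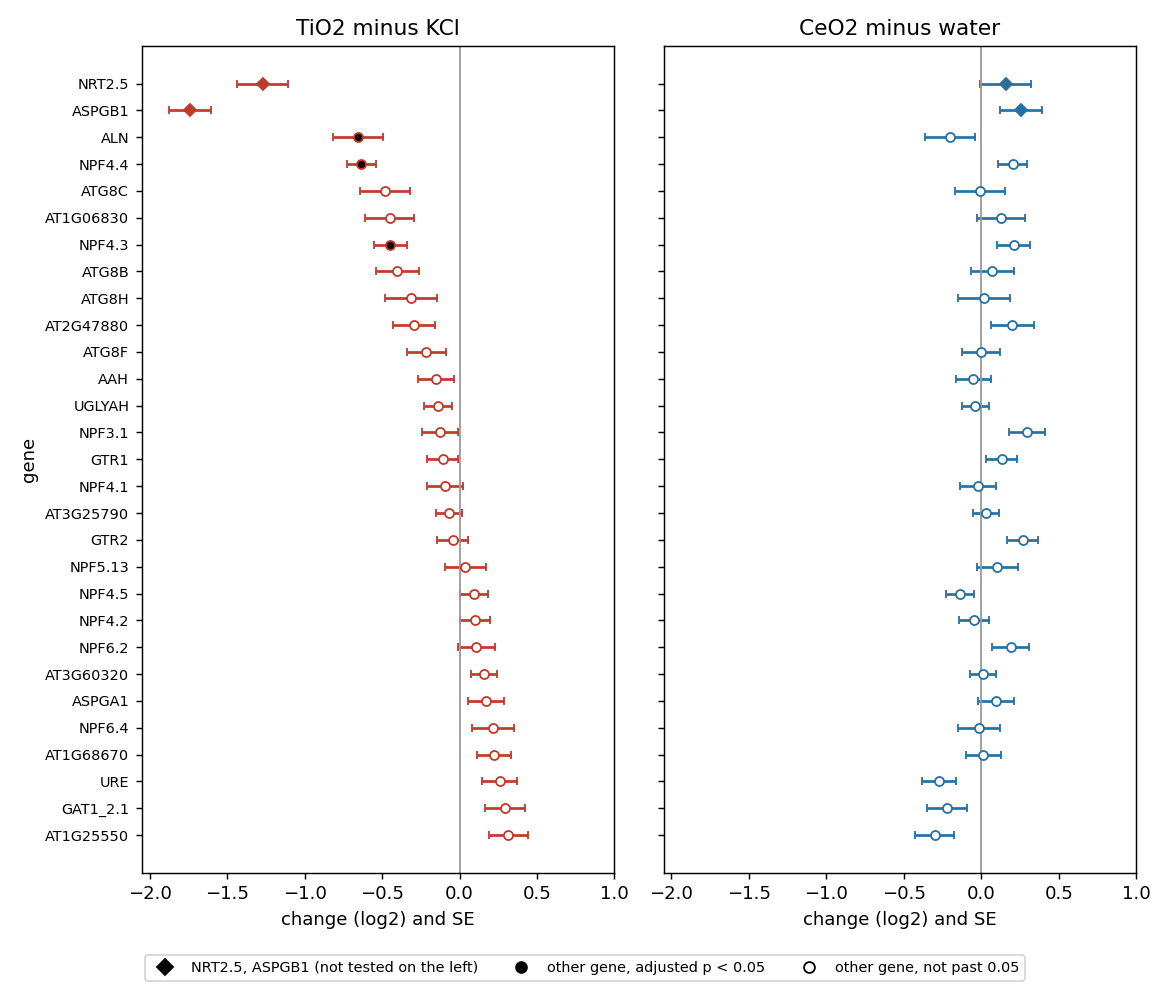
Change (log2) with its SE of NRT2.5, ASPGB1 and the 27 other measured nitrogen genes in TiO2 minus KCl (left) and CeO2 minus water (right), ordered by the left panel. The pair lies at −1.27 and −1.74 log2 on the left, the contrast for which it was picked, and close to 0 on the right. The other genes span −0.65 to 0.32 log2 on the left.

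Some markers of seed tissue were also lower in TiO2. Of 14 listed seed maturation genes 4 were measured, and 3 of these fell, against 5.86% of all probe sets. They were M17 with a change of −2.22 log2, the storage protein gene PAP85 with −1.38 log2 and AtLEA4-1 with −1.24 log2 (limma adjusted p = 0.000763, 0.00420 and 0.00450). M10 was at −0.20 log2 (adjusted p = 0.320). The mean of the 4 was 5.39 to 6.29 log2 on the TiO2 arrays and 6.58 to 7.40 log2 on the KCl arrays. In CeO2 none of the 4 passed, where 2.42% of all probe sets did. The array means of the 4 were 7.14 to 7.50 log2, against 7.33 to 7.69 log2 in water. None of the 4 was near the array minima. Within TiO2, replicate 3 was the lowest array for NRT2.5 and ASPGB1 and the highest for the seed markers, and within KCl replicate 3 was the lowest for ASPGB1 and the highest for these markers. Within CeO2 (7.50, 7.42 and 7.14 log2 on replicates 1 to 3) and within water (7.69, 7.33 and 7.62 log2) the seed markers ranked the arrays in the same order as ASPGB1. Their part in the result was not tested.

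The threshold was passed by 10.6% of all probe sets in TiO2 and 2.42% in CeO2. Of 3 measured leaf senescence markers, PPDK, which takes part in moving nitrogen out of ageing leaves, fell by 0.52 log2 in TiO2 (limma adjusted p = 0.000674). SAG101 was at −0.01 log2 (adjusted p = 0.975), and WRKY53 was at 0.32 log2 (adjusted p = 0.0548). In CeO2 PPDK was at −0.00 log2 (adjusted p = 0.999), and WRKY53 fell by 0.74 log2 (adjusted p = 0.000241). EXPA7 was at 0.34 log2 in TiO2 (adjusted p = 0.129) and RCA at 0.03 log2 (adjusted p = 0.893), while in CeO2 EXPA7 rose by 0.96 log2 (adjusted p = 0.000352). The part of these genes in the result was not tested either.

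**Figure D4:**
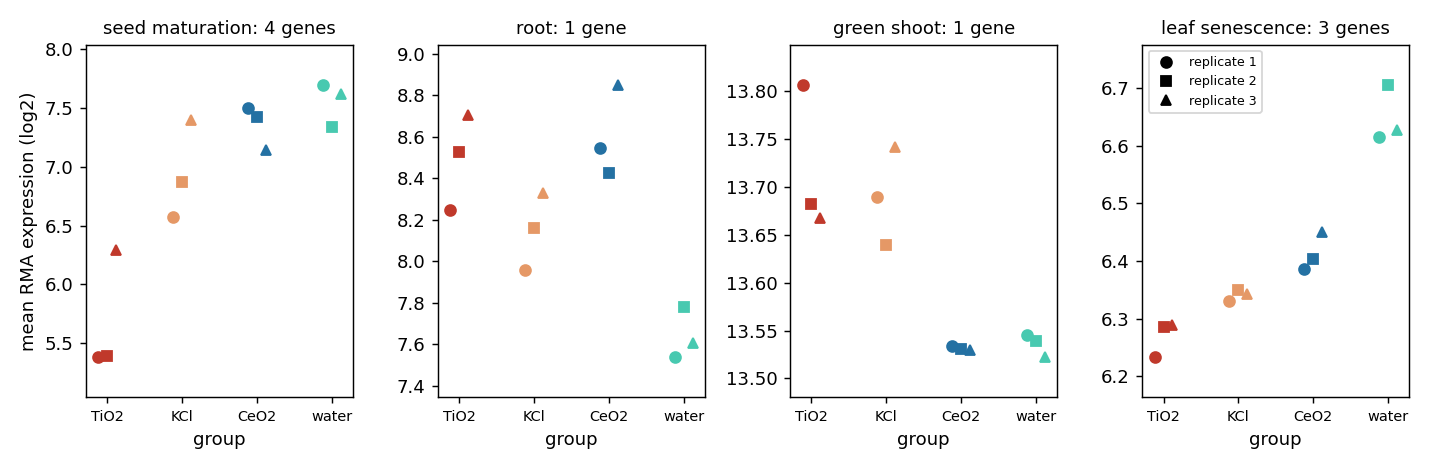
Mean RMA expression (log2) of the measured markers of seed maturation, root, green shoot and leaf senescence on each array, by group, with symbols for the replicate number. Seed maturation markers lie at 5.39 to 6.29 log2 in TiO2, below the 6.58 to 7.40 log2 of KCl, and the single green shoot gene stays between 13.5 and 13.8 log2 on every array.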

How the data were processed

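RNA of 12 arrays was measured, 3 per group. The deposited log2 expression values are the authors' RMA output, per the submitters' processing notes. No version, probe definition or genome build is named for them. RefSeq coordinates were used only to put neighbouring genes in order. Probe sets were paired with genes through the supplied annotation (13513 with 1 gene, 503 with several, 8730 with none) and RefSeq (TAIR10.1). Genes without a symbol took their listed name where the RefSeq synonyms hold it, and otherwise keep their locus number.

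Contrasts came from limma 3.58.1 under R 4.3.3, using 1 mean for each group over all 12 arrays and empirical Bayes moderation. Tests were two-sided and adjusted by Benjamini-Hochberg over 22746 probe sets (threshold 0.05, 8 residual and 7.63 prior degrees of freedom, median SE 0.106 log2). The code was tested on simulated data. For genes with several probe sets the brightest was used. The naming rule took list genes past the threshold, relatives of the pair, named regulators and the 5 most correlated genes of each. Other list genes, neighbours and markers were named after their values were seen. The members and lists were chosen with earlier results of these data known.

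The labels do not say that replicate numbers pair arrays, so no block was used in the main fit. Deviations of same-numbered arrays correlated at 0.046 to 0.274 (TiO2 and KCl) and 0.002 to 0.302 (CeO2 and water). Those of differently numbered arrays correlated at −0.288 to 0.221 and −0.229 to 0.17. These values do not settle whether the arrays were paired. Alternatives were a second quantile normalization, median centring, leaving out the dimmest 30% of probe sets, an intensity trend with a robust prior, only the 6 compared arrays, the replicate number as a block, and leaving out each array.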

Additional observations from a re-analysis of the deposited data

Results flagged for a closer look

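For the 27 other nitrogen genes the effect of CeO2 was set against that of TiO2 (CeO2 effect minus TiO2 effect), and the limma adjusted p was under 0.05 in 3 of them (11.1%, against 8.06% of all probe sets). It was 0.84 ± 0.13 log2 for NPF4.4 (SE; adjusted p = 0.000673), from a change of 0.20 log2 in CeO2 and −0.63 log2 in TiO2. It was 0.66 ± 0.15 log2 for NPF4.3 (adjusted p = 0.0108), from 0.21 log2 in CeO2 and −0.45 log2 in TiO2. The locus AT1G25550, listed as a regulator, had −0.62 ± 0.18 log2 (adjusted p = 0.0460), from −0.30 log2 in CeO2 and 0.32 log2 in TiO2, neither past the threshold. That call was lost without any single array other than KCl replicate 3, TiO2 replicate 1 or CeO2 replicate 2, with an adjusted p of up to 0.128 (without CeO2 replicate 3). Control liquid and set of arrays go with the particle, so the difference cannot be credited to the particles alone.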

How the results depend on the processing

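NRT2.5 and ASPGB1 kept the sign of their change in every alternative run. For TiO2 this says little, since the pair was picked for its falls there. For NRT2.5 in CeO2 the change came down to 0.0034 log2, so no direction is read from its sign. In TiO2 minus KCl the change of NRT2.5 was −1.44 to −1.09 log2 with 1 array left out and −1.35 to −1.26 otherwise, and that of ASPGB1 −1.90 to −1.64 and −1.74 to −1.66. In CeO2 minus water neither passed the threshold in any of 12 alternatives each. NRT2.5 was at 0.0034 to 0.27 log2 with 1 array left out (adjusted p of 0.756 or more) and ASPGB1 at 0.14 to 0.35 (0.513 or more). Both probe sets were kept when the dimmest 30%, by the mean over all arrays, were left out. The replicate block left the changes of the pair as they were and gave adjusted p of 0.829 and 0.416 in CeO2. With it 2 of the 9 listed genes passed in TiO2, AT1G06830 lower and AT1G25550 higher, and 3 in the difference of effects. Of the added genes, ATG8B and ATG8C also passed in TiO2 with it (adjusted p = 0.0204 and 0.0496) and ALN in the difference of effects (0.0338). Leaving out 1 array gave 0 to 2 of the 9 in TiO2 and 0 in CeO2. With the added genes, a choice made after the annotation was seen, the TiO2 count was 3 of 27. In the difference of effects 1 of the 9 passed, 2 with arrays centred on their medians, 2 without dim probe sets and 0 to 3 with 1 array left out. Over all probe sets the TiO2 count of 2407 became 1432 with only the 6 compared arrays and 1782 to 2551 with 1 left out. The CeO2 count of 550 became 382 to 469 with 1 left out. With the replicate block the counts became 2886 in TiO2 and 647 in CeO2. The cause of these shifts was not tested. The number of arrays, 3 per group, limits the precision.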
